A study of Mus musculus with 2 samples.

Results

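The miR-30 family of microRNAs was examined in the mouse heart through its 6 genes, Mir30a, Mir30b, Mir30c-1, Mir30c-2, Mir30d and Mir30e. They were chosen by gene name in the GENCODE M21 annotation, from 2202 listed microRNA genes, of which 1469 had 0 counts in both libraries. The rule uses no measured value, although earlier results of these data were known. The study sequenced short RNA from male mouse heart at an age of 10 days. The strain was the hybrid B6CASTF1/J, a cross of the laboratory strain C57BL/6J with the wild-derived strain CAST. There were 2 libraries, which the labels number as biological replicates 2 and 1 and which form 1 group with no treatment, mutation or control. The labels also give each library its own heart sample, beside 1 donor identifier common to both. Whether a spread between the libraries is a spread between animals cannot be told from these labels. No contrast between conditions existed, no p-value was computed, and 2 libraries could not give a two-sided paired permutation p below 0.5.

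MicroRNAs are cut from hairpin transcripts as short strands, 1 from each arm (5p and 3p), and guide the silencing of messenger RNAs that pair with their seed, the bases near the 5′ end. The miR-30 genes lie in the mouse genome as pairs of neighbours, each pair holding paralogous copies. In rodent hearts the family is known for restraining connective tissue growth factor, a promoter of scar tissue, and for limiting the splitting of mitochondria in heart muscle cells.

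Sequences of 4 of the 6 members were held by RefSeq (GRCm38.p6, the assembly also called mm10). All 5p strands of those 4 had 1 seed in common, and the first 12 bases were identical. They are shown because only the later bases tell 1 distinct 5p strand from another. Bases 2 to 8, the seed, are in capitals, and each strand runs 5′ to 3′. Mir30c-1 on chromosome 4 and Mir30c-2 on chromosome 1 encode the same 5p strand.
miR-30a-5p: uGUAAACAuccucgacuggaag
miR-30e-5p: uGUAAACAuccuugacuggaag
miR-30c-5p: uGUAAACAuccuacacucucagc

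From miR-30a-5p to miR-30e-5p there was a single difference, C13U, counted from 1 at the 5′ end. From miR-30a-5p to miR-30c-5p there were 5 differences over 22 bases, beginning with C13A. The 3p strands fell into 2 seed groups, 1 shared by Mir30a and Mir30e and 1 shared by the Mir30c genes, again with the seed in capitals.
miR-30a-3p: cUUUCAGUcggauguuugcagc
miR-30e-3p: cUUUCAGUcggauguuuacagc
miR-30c-1-3p: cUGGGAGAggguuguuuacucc
miR-30c-2-3p: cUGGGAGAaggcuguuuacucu

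Here too miR-30a-3p and miR-30e-3p parted at a single base, G18A, while the 2 miR-30c 3p strands parted at 3 bases, the first being G9A. The Mir30c hairpins are shown whole, with the mature strands in capitals, because their identity bears on the counts of those genes. The longest stretch the hairpins had in common was 28 bases and covered the whole 5p strand. Between Mir30a and Mir30e the longest was 18 bases, the longest that either had with any of the 968 counted hairpins that have a RefSeq sequence.
Mir30c-1: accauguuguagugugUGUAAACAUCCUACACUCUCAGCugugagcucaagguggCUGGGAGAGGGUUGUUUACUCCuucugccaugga
Mir30c-2: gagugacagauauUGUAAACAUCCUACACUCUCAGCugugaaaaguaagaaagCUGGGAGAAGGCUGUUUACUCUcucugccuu

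A read of the miR-30c 5p strand, 23 bases long, is found in both hairpins. Reads with several mapping positions were left out of every gene count and numbered 8191878 in replicate 2 and 3254982 in replicate 1, which was 24.6 and 22.8 times the count of the whole family. They were 2510 and 1248 times the summed count of both Mir30c genes. How many of the multimapped reads were miR-30c was not tested. The files give 1 count per gene and do not separate the 5p from the 3p strand.

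The annotation places the members at 3 loci of 2 genes each, all in mm10. Mir30d (ENSMUSG00000065437.1; chromosome 15, 68341208 to 68341289, minus strand) lies in an exon of the long noncoding RNA gene Gm20732. Its partner Mir30b (ENSMUSG00000065476.2; chromosome 15, 68337415 to 68337510, minus strand) lies 3697 bases downstream and overlaps an exon of the noncoding transcript Gm26621 by 16 bases. Mir30a (ENSMUSG00000065405.3; chromosome 1, 23272269 to 23272339, plus strand) overlaps no other annotated gene. Mir30c-2 (ENSMUSG00000065567.1; chromosome 1, 23291701 to 23291784, plus strand) follows 19361 bases downstream, in an exon of the long noncoding RNA gene Gm27028. Mir30e (ENSMUSG00000065409.1; chromosome 4, 120772606 to 120772697, minus strand) and Mir30c-1 (ENSMUSG00000065490.1; chromosome 4, 120769534 to 120769622, minus strand) both lie in an intron of Nfyc, 2983 bases apart. Nfyc encodes a subunit of the transcription factor NF-Y. The first-named gene of each pair is upstream of its partner. Mir30d also overlaps an exon of a second annotated gene, Gm37296, by 9 bases.

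The libraries held 6305782 reads on the strand of a microRNA gene in replicate 2 and 3748432 in replicate 1. Levels are given as CPM, the count per 1000000 of these reads. A count of 0 allows up to 3 counts, which equals 0.476 CPM in replicate 2 against 0.80034 CPM in replicate 1. Amplified reads are not independent molecules, so this limit and all intervals cover counting error only. The labelled tissue was checked against marker microRNAs. The 7 heart muscle genes, among them Mir208a and Mir499, summed to 12455 CPM in replicate 2 against 8318 CPM in replicate 1, and none was at 0. The neural genes Mir9-1 to Mir9-3 and Mir124a-1 to Mir124a-3 were below the limit in each library, with 5 and 4 of the 6 at 0. Other markers from outside the heart were above it. The liver gene Mir122 had 77.7 and 57.9 CPM, and the skeletal muscle genes Mir206 and Mir133b summed to 21.1 and 28.5 CPM. Genes of endothelium (100563 and 88956 CPM) and smooth muscle (53313 and 44790 CPM) were also present. So were genes of red cells (8704 and 9908 CPM) and leukocytes (1520 and 1567 CPM). A level in this tissue can thus come from several cell types. All these sums leave out reads with several mapping positions, so they do not rank the cell types by amount. Fewer cells of a type and less RNA per cell cannot be told apart in such samples.

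By reads with 1 mapping position, the miR-30 genes divided into 3 abundant and 3 scarce members, 1 of each at every locus. Reads that fitted both Mir30c hairpins are left out, so the scarcity of both Mir30c genes and the family shares below are uncertain. Mir30d, Mir30a and Mir30e together held 98.3% of the family's counts in replicate 2 (exact Clopper-Pearson 95% interval 98.2% to 98.3%) and 97.3% in replicate 1 (97.2% to 97.4%). Mir30b, Mir30c-2 and Mir30c-1 held the remaining 1.71% (1.66% to 1.75%) and 2.72% (2.63% to 2.803%). All 6 had at least 10 counts in both libraries, as did 340 of the 2202 genes.

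**Figure D1:**
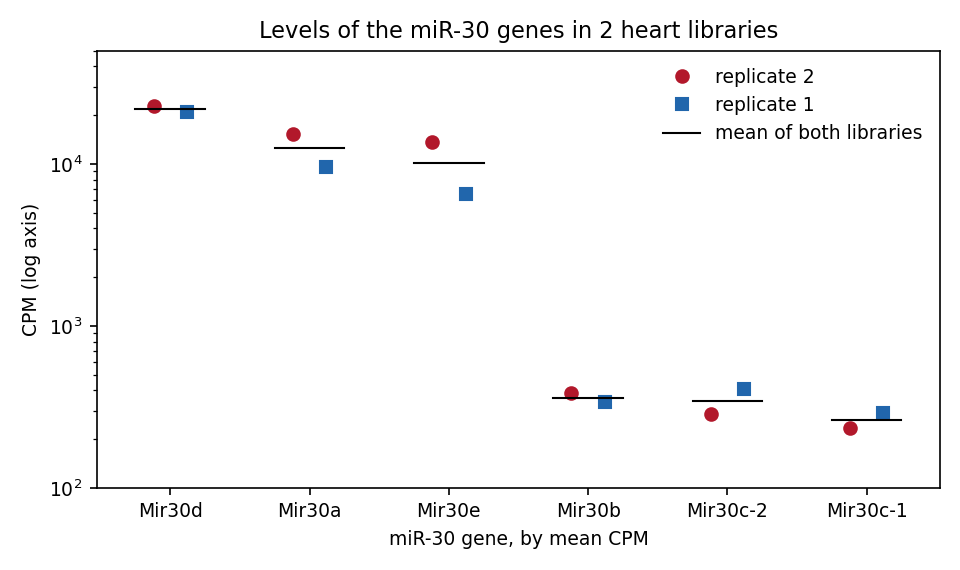
Level of each miR-30 gene in CPM on a log axis, with a circle for replicate 2, a square for replicate 1 and a line at the mean of both libraries. Mir30d, Mir30a and Mir30e lie between 6516 and 22841 CPM, and Mir30b, Mir30c-2 and Mir30c-1 lie between 233 and 407 CPM.

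Mir30d was the leading member in each library. It had 144028 counts or 22841 CPM in replicate 2 against 78386 counts or 20912 CPM in replicate 1. Its mean was 21876 ± 1364 CPM (SD, n = 2), and it stood at rank 13 and rank 12 of all genes. It was also the steadiest of the abundant members, with the smallest spread for its level.

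Mir30a had 96984 counts or 15380.2 CPM in replicate 2 against 35972 counts or 9597 CPM in replicate 1. Its mean was 12488 ± 4089.6 CPM, and its ranks were 15 and 19. Mir30e had 85826 counts or 13611 CPM in replicate 2 against 24425 counts or 6516 CPM in replicate 1. Its mean was 10063 ± 5017 CPM, and its ranks were 16 and 26. The ranges of Mir30a and Mir30e overlapped, so their order was not separated from the spread, although Mir30a was the higher within each library by 1.13 and 1.47 times. The lowest value of Mir30d lay above the highest value of Mir30a.

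The scarce members lay far below in both libraries, a name that holds within the family only. In replicates 2 and 1, Mir30b stood at ranks 97 and 106 of all genes, Mir30c-2 at 109 and 97, and Mir30c-1 at 118 and 116. Mir30b had 2412 counts or 383 CPM in replicate 2 against 1268 counts or 338 CPM in replicate 1, with a mean of 360.4 ± 31.3 CPM. Mir30c-2 had 1792 counts or 284 CPM in replicate 2 against 1526 counts or 407 CPM in replicate 1, with a mean of 346 ± 86.9 CPM. Mir30c-1 had 1472 counts or 233 CPM in replicate 2 against 1082 counts or 289 CPM in replicate 1, with a mean of 261 ± 39.0 CPM. Neighbours among these 3 genes overlapped in range over the libraries, so their order was not separated from the spread. Within each library Mir30c-2 was above Mir30c-1, by 1.22 times in replicate 2 and 1.41 times in replicate 1, whereas Mir30b was above Mir30c-2 in replicate 2 and below it in replicate 1. The values of both Mir30c genes leave out any read that fitted both hairpins and are uncertain for that reason. Between the groups of members the gap was wide, with Mir30e at 35.6 times Mir30b in replicate 2 and 19.3 times in replicate 1.

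The annotated genes differ in length, from 71 bases for Mir30a to 96 bases for Mir30b, whereas a read stands for a mature strand of nearly fixed length. Per 100 bases of gene the mean levels were 26678 CPM for Mir30d, 17589 for Mir30a, 10938 for Mir30e, 411 for Mir30c-2, 375 for Mir30b and 293 for Mir30c-1. On that scale Mir30c-2 passed Mir30b, a pair not separated on either scale, and the other 14 of 15 pairs of members kept their order.

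The family as a whole took 5.27% of the counts on microRNA genes in replicate 2, with an exact 95% interval of 5.26% to 5.29%, and 3.81% (3.79% to 3.83%) in replicate 1, a mean of 4.54% ± 1.04 (SD, n = 2). Its make-up also differed between the libraries. Mir30d took 43.3% of the family's counts in replicate 2 and 54.9% in replicate 1. Mir30a took 29.2% and 25.2%, and Mir30e took 25.8% and 17.1%. The larger family total of replicate 2 thus went with larger shares for Mir30a and Mir30e and a smaller share for Mir30d.

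The comparison of the libraries member by member used log2 ratios of replicate 2 over replicate 1 after TMM scaling, which sets the zero by the bulk of the detected genes. A gene was counted as apart at a difference of at least 2-fold. Of the 340 detected genes, 20.3% were apart in either direction, 10.6% being at least 2-fold higher and 9.71% at least 2-fold lower in replicate 2. Mir30e was the 1 member apart, 2.35-fold higher in replicate 2 with a log2 ratio of 1.23 (exact 95% interval 1.21 to 1.26). That is 1 of 6 members, a share near the background of 20.3%, and no member was past 2-fold in the other direction. The background was not matched for level. It holds genes from 10 counts upward, whereas the lowest count of a member was 1082.

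**Figure D2:**
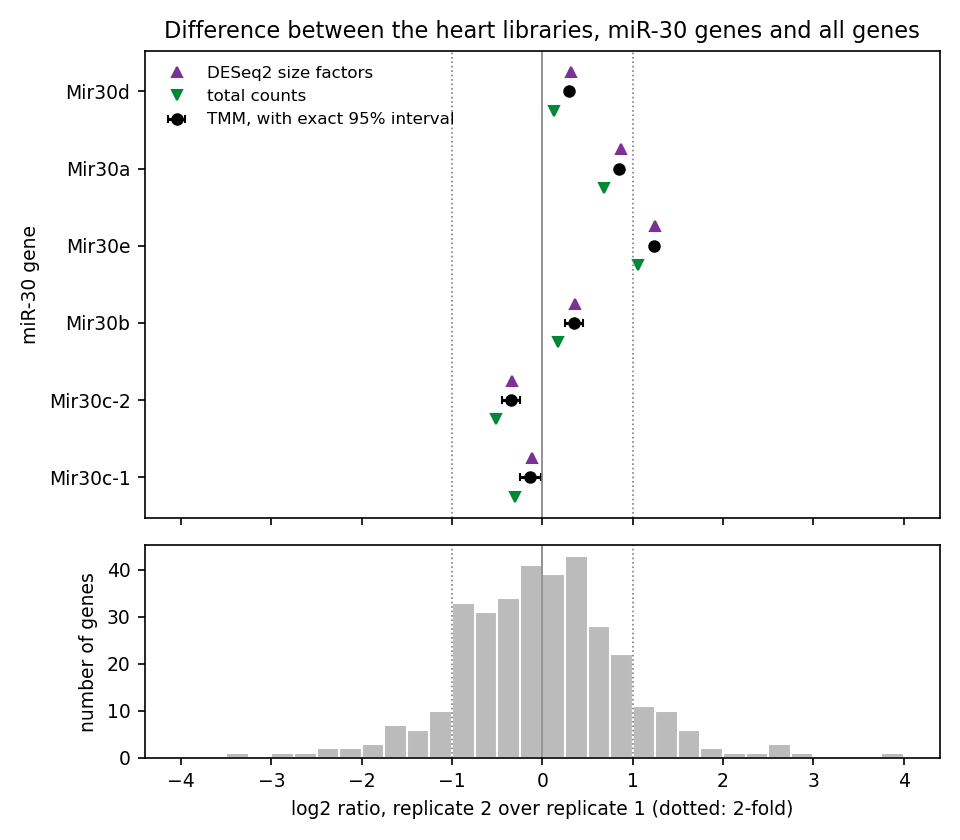
Upper panel, log2 ratio of replicate 2 over replicate 1 for each miR-30 gene, as TMM-scaled values with exact 95% intervals and under 2 other scalings, with dotted lines at 2-fold. Lower panel, the same ratio over all 340 detected genes, whose median was -0.02. Of the members, only Mir30e passed 2-fold, under each scaling drawn, and the Mir30c genes lay below 0 under each.

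Mir30a followed with a log2 ratio of 0.85 (0.84 to 0.87), Mir30b with 0.35 (0.25 to 0.45) and Mir30d with 0.30 (0.29 to 0.31). Both Mir30c genes ran the other way, Mir30c-2 at -0.35 (-0.45 to -0.25) and Mir30c-1 at -0.13 (-0.25 to -0.02). The median over the 6 members was 0.32, against -0.02 over all detected genes, and the median size of the ratio regardless of sign was 0.35 against 0.55. Total counts in place of TMM lower every ratio by 0.17, which gave Mir30d 0.13 and Mir30e 1.06, and all 6 kept their sign. By size, the ratio of Mir30e stood at percentile 85.3 of the detected genes and that of Mir30c-1 at percentile 11.5. Other measures moved with the libraries too. Multimapped reads made up 48.1% of replicate 2 but 36.8% of replicate 1. The summed heart muscle genes, counted without multimapped reads, were at 12455 and 8318 CPM. The part of these measures in the ratios was not tested.

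Within a locus the ratio of the pair does not depend on the scaling between libraries. Mir30d exceeded Mir30b 59.7-fold in replicate 2 and 61.8-fold in replicate 1. The log2 ratio of this pair was 5.90 and 5.95, a difference of -0.05 (exact conditional 95% interval -0.15 to 0.05), an interval that includes no change. The pairs with a Mir30c gene behaved differently. Mir30a exceeded Mir30c-2 54.1-fold in replicate 2 and 23.6-fold in replicate 1, and Mir30e exceeded Mir30c-1 58.3-fold and 22.6-fold.

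**Figure D3:**
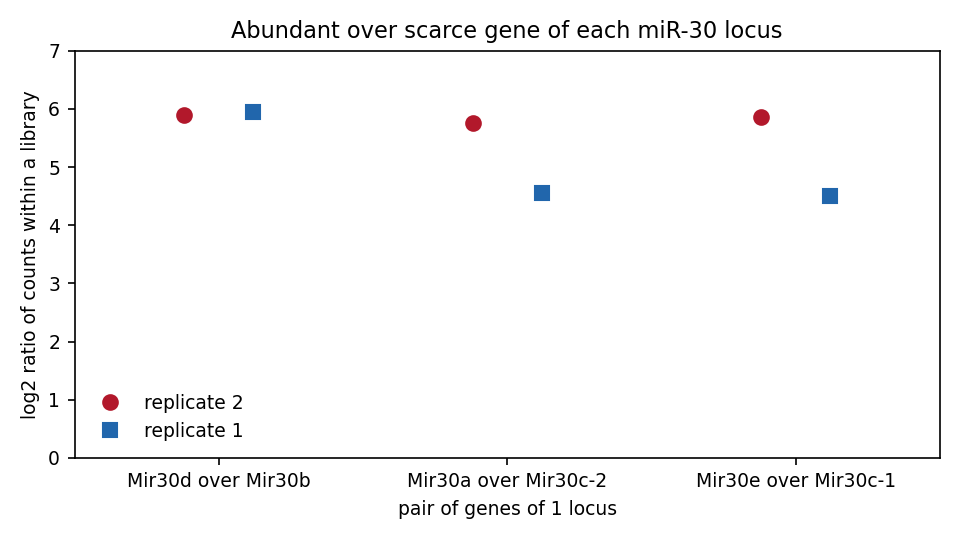
Log2 ratio of the abundant over the scarce gene of each miR-30 locus, with a circle for replicate 2 and a square for replicate 1. The 3 ratios of replicate 2 lie between 5.76 and 5.90, while in replicate 1 that of Mir30d over Mir30b is 5.95 and the ratios to the Mir30c genes are 4.56 and 4.50.

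On the log2 scale these 2 pairs differed between the libraries by 1.20 (1.10 to 1.30) and 1.37 (1.25 to 1.49), both past 2-fold. After TMM scaling, the member ratios were 0.85 for Mir30a and -0.35 for Mir30c-2, and 1.23 for Mir30e and -0.13 for Mir30c-1. The size of each of these ratios depends on the scaling, while their signs held under the scalings tried. The counts include only Mir30c reads with 1 mapping position, and the part of the miR-30c reads left out was not tested. For background, all 109 pairs of adjacent detected genes on 1 strand and at most 20000 bases apart were measured in the same way, a set defined after the values were seen. Of these, 32.1% differed past 2-fold, the family's own pairs included. Over the 106 pairs outside the family the share was 31.1% and the median size was 0.54. A change past 2-fold in 2 of 3 pairs is a small count to set beside that share.

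Summed by locus, the chromosome 15 pair reached 23223 CPM in replicate 2 against 21250 CPM in replicate 1. The chromosome 1 pair had 15664 and 10004 CPM, and the chromosome 4 pair in Nfyc had 13844 and 6805 CPM. The corresponding log2 ratios after TMM scaling were 0.30, 0.82 and 1.20, set almost wholly by Mir30d, Mir30a and Mir30e in these counts. Reads that fitted both Mir30c hairpins are left out of the chromosome 1 and chromosome 4 sums. The weight of the Mir30c genes in those sums is therefore uncertain.

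Mir30e shares its position with another annotated microRNA gene. Mir30f (ENSMUSG00000105585.1) covers the same 92 bases of chromosome 4 on the plus strand. Its RefSeq mature strand is shown because it opens with the letters of the family's seed, but at base 1 instead of base 2, so that its own seed, in capitals, is another.
miR-30f: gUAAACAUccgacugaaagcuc

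Mir30f had 0 counts on its own strand in both libraries, which allows at most 0.476 CPM in replicate 2 against 0.80034 CPM in replicate 1. All 85826 and 24425 reads counted at the position lay on the Mir30e strand. None of the 6 members had a read on the opposite strand. In the deposited column that ignores strand, both Mir30e and Mir30f are listed at 0. That column reports 1747892 ambiguous reads in replicate 2 and 991966 in replicate 1, of which the Mir30e count would make up 4.91% and 2.46%. Mir30e, a leading member by the column of its own strand, is thus missing from the other.

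Beyond the family, 1 of the 1018 counted genes that have a RefSeq mature strand carried the same 5p seed. This was Mir384 on the X chromosome, whose 5p strand matches the miR-30 strands through base 8 and is shown for that reason.
miR-384-5p: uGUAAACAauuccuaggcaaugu

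Mir384 had 2 counts in replicate 2 and 4 in replicate 1, or 0.317 and 1.07 CPM. Genes without a RefSeq mature strand, Mir30b and Mir30d included, were not searched for the seed. The 3p seed of the Mir30c genes occurred in 1 other counted gene, Mir6958, with 4 counts in each library.

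The genes nearest to each member in level over the 2 libraries were found by the Euclidean distance in log2(CPM + 1) among the 334 detected genes outside the family. Only 2 libraries enter this distance, and it says nothing of function. Mir335, hosted by the imprinted gene Mest, was nearest to Mir30a (distance 0.51), at 20015 CPM in replicate 2 against 12191 CPM in replicate 1. Mir322 was nearest to Mir30d (0.44), with 23714 and 15463 CPM, and Mir130a to Mir30e (0.28), with 13314 and 5371 CPM. The log2 ratio of Mir130a between the libraries was 1.48, and its likeness to that of Mir30e follows from the way it was chosen. The scarce members had closer neighbours, Mir467e for Mir30b (0.08), Mir337 for Mir30c-2 (0.20) and Mir29a for Mir30c-1 (0.05). Mir29a is known for repressing collagen genes.

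**Figure D4:**
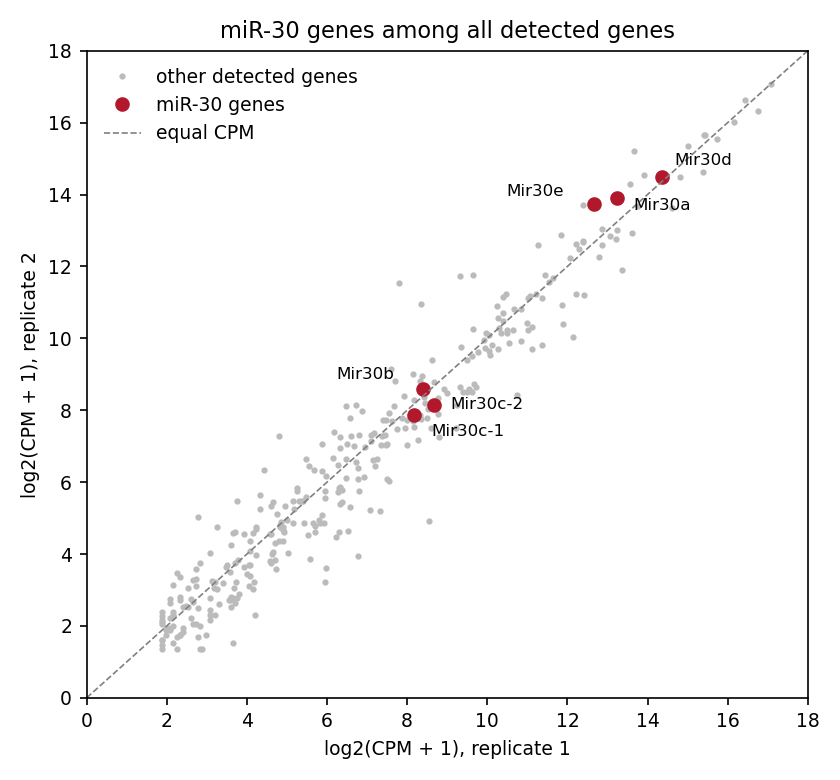
Levels of the 340 detected genes as log2(CPM + 1), with replicate 1 on the horizontal and replicate 2 on the vertical axis and a dashed line at equal CPM. Mir30d lies close to the line, Mir30a and Mir30e lie above it, and the scarce members sit in the middle of the range of detected genes.

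Beside 3 other families with closely related members, miR-30 took the second largest share in each library by reads with 1 mapping position. It held 5.27% of counts in replicate 2 and 3.81% in replicate 1, while the let-7 family of 12 genes, known for timing development, took 21.5% and 27.5%. The 3 genes of the miR-26 family took 3.77% and 1.29%, and the 4 genes of the miR-29 family took 0.0275% and 0.0336%. Their top members carried unlike shares of each family. Mir30d held 43.3% and 54.9% of the miR-30 counts, against 37.9% and 40.1% for Mirlet7i within let-7, 99.8% and 99.7% for Mir26b within miR-26 and 85.3% and 88.6% for Mir29a within miR-29. These shares concern reads with 1 mapping position, and families with duplicated mature strands lose reads by that rule. How far that rule sets the order of the families and the shares of their top members was not tested. With 2 libraries no difference between families was tested.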

How the data were processed

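Short RNA of heart tissue was sequenced in 2 libraries of 1 group. The deposited tables, 1 per library, hold raw counts of reads for each microRNA gene with no normalization by the authors, made with mm10 and annotation M21 per the deposited text. For aligner, counter and settings, the sources used here give nothing. Of the 3 count columns, the meaning of each (both strands, gene strand, opposite strand) was read from the values, and the gene strand was used. Each table holds 2202 genes, all matched by identifier to GENCODE M21, and 4 entries that name no gene, which stayed out of all library totals. Multimapped reads made up 48.1% of replicate 2 but 36.8% of replicate 1, unmapped ones 11.5% and 16.0%, and those outside genes 3.43% and 4.78%. The last of the 4 holds ambiguous reads. The gene strand took 37.0% and 42.4%.

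CPM used the total on microRNA genes. Ratios used TMM (edgeR 4.0.16) over genes with a minimum of 10 counts in each library and a prior of 0.5 counts. Intervals are exact 95% intervals by Clopper-Pearson for shares, by the conditional binomial for ratios and by the conditional odds ratio for pairs (scipy 1.17.1). The ratio step was tested on simulated counts. No quasi-likelihood test was fitted, since 1 group has no contrast. Alternatives were total counts, DESeq2 1.42.0 size factors, other filters, priors and thresholds, the column of both strands, levels per 100 bases and leaving out each library.

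Named genes are the 6 members, other counted genes with a member's seed, and for each member its nearest gene in level. Mir6958, Mir30f and the shares of top family members were added after values were seen. Members and lists were chosen with earlier results of these data known. RefSeq sequences (GRCm38.p6) were matched by symbol for 4 of 6 members.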

Additional observations from a re-analysis of the deposited data

How the results depend on the processing

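The sign of each member's ratio and the count of 1 member past 2-fold held under total counts, DESeq2 size factors, TMM over all genes with any count and a prior of 2 counts. At 1.5-fold the count was 2, Mir30e and Mir30a, where 46.5% of detected genes passed. Total counts moved the log2 ratios beyond their counting intervals, to 0.68 for Mir30a, 0.18 for Mir30b, -0.31 for Mir30c-1, -0.52 for Mir30c-2, 0.13 for Mir30d and 1.06 for Mir30e. TMM over all genes with any count gave 0.82 for Mir30a, 0.27 for Mir30d and 1.21 for Mir30e, and DESeq2 size factors gave 0.32 for Mir30d. The scaling itself sets these shifts, which are equal for all genes. As a share of all reads, with unmapped reads and reads of several positions in the total, the family took 1.78%, and leaving out either library gave 3.81% to 5.27% of gene counts. The order of levels held for 14 of 15 pairs per 100 bases of gene, and for 14 to 15 pairs when 1 library was left out. It held for 12 pairs in the column of both strands, where Mir30e is at 0 and so has neither a ratio between libraries nor one to Mir30c-1. Per 100 bases the log2 ratio of Mir30d over Mir30b was 6.15, against 5.92 by counts. When 1 library was left out, the log2 ratio was 5.90 to 5.95 for Mir30d over Mir30b, 4.56 to 5.76 for Mir30a over Mir30c-2 and 4.50 to 5.87 for Mir30e over Mir30c-1. No paired comparison of conditions was possible because the samples form 1 group. Depth does not limit the members, but Mir30f and Mir384 lie at or near the limit of 3 counts.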
